A study of Mus musculus with 36 samples.

Results

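CHD4 sites of mouse embryonic stem cells (ESCs) were compared with those of neural progenitors derived from them (NPCs). A site is a stretch of the genome at which CHD4 was enriched in chromatin immunoprecipitation followed by sequencing (ChIP-seq). ESC sites were the peaks of replicate 1 that overlapped a peak of replicate 2 by at least 1 bp, which left 8246 sites, and all 20234 peaks of the single NPC library were taken. Together these are 28480 of the 104813 peaks in the 9 peak lists of the series. An ESC site that overlapped an NPC peak was called shared (1080 sites), an ESC site without one ESC-only (7166 sites), and an NPC peak that overlapped no ESC site NPC-only (19138 sites). Of these, 1078 shared, 7154 ESC-only and 19130 NPC-only sites lie on chromosomes 1 to 19, X and Y, and every count below that needs a gene or a sequence is over those.

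The series holds 36 samples that map the nucleosome remodeling and deacetylase (NuRD) complex and its interactor ZFP296, and 27 of them have no list analysed here. ESCs of both CHD4 libraries are labelled as wild-type R1 cells, a widely used mouse ESC line, grown in serum with LIF and 2i, a pair of kinase inhibitors that hold ESCs undifferentiated. NPCs are labelled as derived in vitro from wild-type R1 ESCs and were grown in NPC medium, so cell type and medium cannot be told apart. The same CHD4 antibody was used for all 3 libraries. Beside them stand MBD3 in wild-type ESCs (2 lists) and NPCs (1 list), SIN3A in wild-type ESCs (1 list with spike-in chromatin and 1 without), and ZFP296, precipitated through a GFP tag from ESCs whose label names a ZFP296 BAC, a bacterial artificial chromosome, in R1 cells. The study's methods describe the tagged construct in KH2 ESCs instead, so the ZFP296 list may come from another ESC line than the CHD4 lists. ESC replicate 2 is labelled as wild type, but the names of its CHD4 peaks mention a BAC of Zfp219, so results are also given from each ESC list alone. The files hold peaks and no expression, so the cell types could not be checked against the level of their marker genes.

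CHD4 is the ATPase that drives nucleosome remodeling by NuRD. The complex joins it to the histone deacetylases HDAC1 and HDAC2 and to the methyl-binding domain protein MBD3 or MBD2. NuRD does not read a DNA sequence of its own with high specificity. Transcription factors and zinc finger proteins, among them members of the SALL family, are known to bring it to chromatin, and in ESCs it lies at many enhancers and promoters of pluripotency genes. Which short sequences lie under CHD4 peaks in each cell type is therefore of interest. The sequences below were picked after their values were seen, as strong examples of each kind, and are mm9 plus strand, 120 bases each.

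The first set shows NPC-only sites that hold the AP-1 string TGACTCA (or its reverse complement, in capitals), the site of dimers of the JUN and FOS families. They lie 39.5 kb upstream of Ube2h (chr6:30293987-30294106), in an intron of Vangl1 (chr3:101986610-101986729) and in an intron of Csgalnact1 (chr8:71231514-71231633).
Ube2h: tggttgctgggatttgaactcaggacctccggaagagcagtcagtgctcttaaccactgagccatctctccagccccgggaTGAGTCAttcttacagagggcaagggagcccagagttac
Vangl1: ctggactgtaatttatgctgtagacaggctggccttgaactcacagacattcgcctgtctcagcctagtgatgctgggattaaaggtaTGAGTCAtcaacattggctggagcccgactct
Csgalnact1: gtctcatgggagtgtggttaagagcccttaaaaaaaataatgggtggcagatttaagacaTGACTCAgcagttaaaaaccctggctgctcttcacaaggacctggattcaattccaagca

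The second set shows ESC-only sites with strings of pluripotency factors in capitals. The sites 77.4 kb upstream of Odz3 (chr8:49837402-49837521) and 8.02 kb upstream of Snai1 (chr2:167355620-167355739) hold the octamer ATGCAAAT, bound by POU5F1, and the SOX string CCATTGT. The site 40.0 kb upstream of 2610019F03Rik (chr8:14014942-14015061) holds the reverse complement of TCAAGGTCA, the site of the orphan nuclear receptor ESRRB.
Odz3: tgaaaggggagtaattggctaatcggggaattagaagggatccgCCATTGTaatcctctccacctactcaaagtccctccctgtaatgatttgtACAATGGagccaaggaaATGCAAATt
Snai1: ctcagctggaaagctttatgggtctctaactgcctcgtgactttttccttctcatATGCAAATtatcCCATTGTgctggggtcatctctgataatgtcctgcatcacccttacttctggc
2610019F03Rik: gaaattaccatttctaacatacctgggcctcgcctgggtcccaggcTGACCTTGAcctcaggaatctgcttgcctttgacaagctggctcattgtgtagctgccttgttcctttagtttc

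The third set shows shared sites with AGGGGGCGC, the core of the sequence read by the insulator protein CTCF, on either strand in capitals. The Jup site lies 0.222 kb downstream of the transcription start site (TSS; chr11:100258781-100258900), and the Dnmbp site is intronic (chr19:43956211-43956330).
Jup: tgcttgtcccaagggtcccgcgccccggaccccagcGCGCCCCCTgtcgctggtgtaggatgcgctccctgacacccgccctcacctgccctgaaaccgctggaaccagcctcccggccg
Dnmbp: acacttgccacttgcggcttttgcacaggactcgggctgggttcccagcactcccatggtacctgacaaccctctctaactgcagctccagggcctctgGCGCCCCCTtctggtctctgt

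Few CHD4 sites were held in both cell types. Of the 8246 ESC sites, 1080 (13.1%, 95% exact binomial interval 12.4 to 13.8) overlapped an NPC peak, and of the 20234 NPC peaks 1096 (5.42%) overlapped an ESC site. In comparison, 70.4% of ESC replicate 1 peaks overlapped a peak of ESC replicate 2, which held 29974 peaks, and 27.7% of replicate 2 peaks overlapped one of the 11712 of replicate 1. Taken alone, 10.8% of replicate 1 peaks and 9.88% of replicate 2 peaks overlapped an NPC peak. The difference between the cell types was thus larger than that between the ESC lists, also where the longer ESC list was the one counted. With 2 ESC lists and 1 NPC list an exact permutation over samples cannot give a p below 0.333, and sites are not replicates, so no test was made, and the intervals cover counting error only.

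Overlap changed with the strength of a peak and with the length of the NPC list. The value deposited with each peak is on a −log10 scale and ranks peaks within a list. From the lowest to the highest quartile of the replicate 1 value, 10.1%, 12.8%, 13.7% and 16.3% of ESC sites had an NPC peak. From the lowest to the highest quartile of the NPC value, 3.87%, 3.97%, 5.13% and 8.72% of NPC peaks had an ESC site. With the NPC list cut to its strongest peaks, as many as there are ESC sites, the shared part of the ESC sites was 7.45%. Sites of one cell type could lie close to sites of the other without touching them. An NPC peak lay within 1 kb of 6.17% and within 10 kb of 29.8% of ESC-only sites, and the median gap was 26.2 kb. For NPC-only sites, 11.7% had an ESC site within 10 kb, and the median gap was 129.5 kb. Of the NPC-only sites, 2068 (10.8%) did overlap an ESC peak that was not held in both ESC lists, 1889 of them one of replicate 2 and 185 one of replicate 1.

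The strongest shared site, by the value in ESC replicate 1, was a 699 bp peak in an intron of Bcar3, an adaptor of integrin and growth factor signaling (chr3:122137824-122138522), with values of 140.6 in ESC replicate 1, 160.7 in replicate 2 and 46.3 in NPCs. It was followed by sites in the TSS windows of Gpcpd1 (65.4, 52.9 and 15.3), a glycerophosphodiesterase, and of Rfwd3 (63.1, 97.2 and 21.0), a ubiquitin ligase of the DNA damage response. All 3 were high in every CHD4 list. The Gpcpd1 site carried SIN3A in both lists, while no MBD3, SIN3A or ZFP296 peak overlapped the Bcar3 and Rfwd3 sites. Among ESC-only sites the highest was in the TSS window of Dll3, a Notch ligand (chr7:29083840-29084236, 98.9 and 134.8 in the ESC lists), a peak with no MBD3, SIN3A or ZFP296 peak. The next was 4.79 kb upstream of Jam2, a junctional adhesion molecule (chr16:84769287-84769862), with 83.8 and 29.1, and it carried both MBD3 lists, both SIN3A lists and ZFP296. The third lay 22.8 kb upstream of Fkbp4, a co-chaperone of HSP90, with 64.2 and 16.3 and an MBD3 peak of replicate 1. The strongest NPC-only sites were 57.7 kb downstream of the TSS of Nln (86.1), a peptidase, in an intron of Plcb1 (78.3), a phospholipase of G protein signaling, and more than 1 Mb from the nearest TSS, that of Cited2 (76.9). The Plcb1 site holds the AP-1 string, and none of the 3 carried a peak of another list. The centres of the strongest site of each class outside UTRs, Bcar3 (chr3:122138113-122138232), Jam2 (chr16:84769515-84769634) and Nln (chr13:104768905-104769024), hold none of the 22 strings searched in the bases shown.
Bcar3: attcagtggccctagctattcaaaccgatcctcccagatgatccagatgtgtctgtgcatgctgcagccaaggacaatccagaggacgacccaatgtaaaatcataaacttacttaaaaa
Jam2: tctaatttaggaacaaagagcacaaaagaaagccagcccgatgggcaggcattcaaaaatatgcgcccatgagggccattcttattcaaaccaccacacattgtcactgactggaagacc
Nln: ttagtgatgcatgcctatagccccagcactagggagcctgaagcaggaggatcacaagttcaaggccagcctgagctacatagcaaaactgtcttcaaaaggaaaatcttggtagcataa

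Shared sites lay at promoters more often than the sites of one cell type. The TSS window, which reaches 1 kb upstream and 5 kb downstream of a protein-coding TSS, held 45.9% of shared sites, 19.6% of ESC-only sites and 18.5% of NPC-only sites. Shared sites exceeded ESC-only sites by 26.3 percentage points (95% Newcombe interval 23.2 to 29.4) and NPC-only sites by 27.5 (24.4 to 30.5). With 1 ESC list in place of the pair, the first difference was 24.4 or 25.9 points. ESC-only and NPC-only sites were close in this respect (−1.13 points, NPC-only minus ESC-only, −2.22 to −0.0734). That small difference was −10.1 points with replicate 2 as the ESC side, −3.01 with replicate 1, −6.34 with the shortened NPC list and 0.842 with a window of 1 kb to each side, so it had no fixed size or direction.

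**Figure D1:**
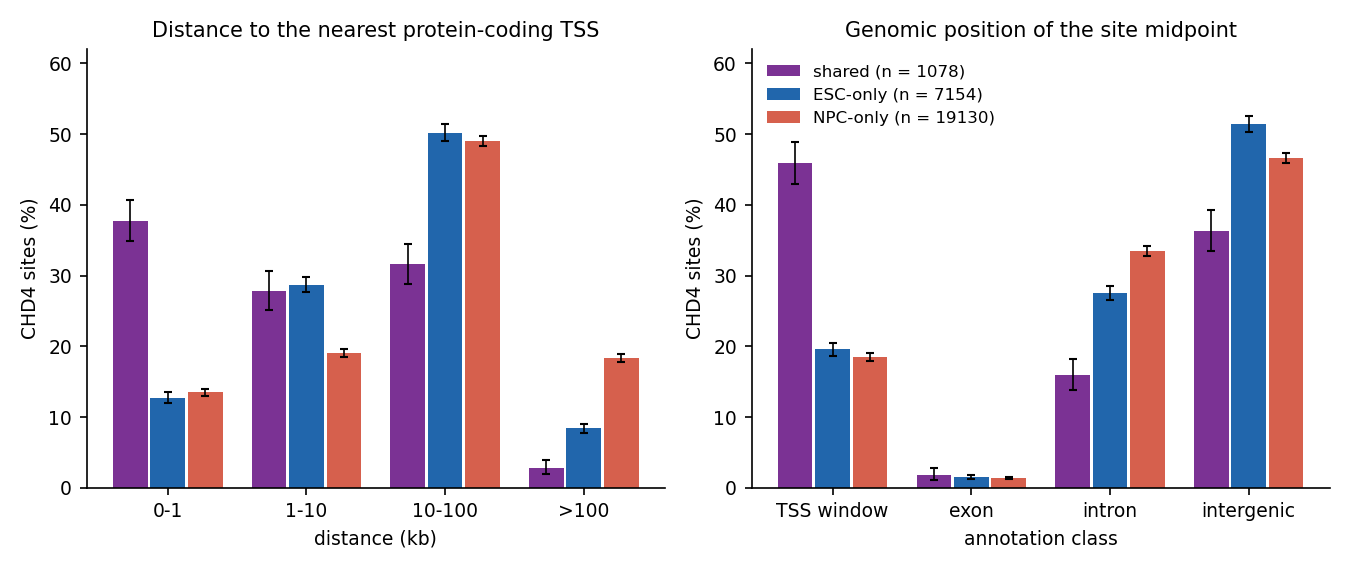
Position of CHD4 sites by class, as the percentage of sites in each position (TSS window, exon, intron, intergenic) and in each range of distance to the nearest protein-coding TSS; error bars are 95% exact binomial intervals. Shared sites stand apart in the TSS window (45.9%) and within 1 kb of a TSS (37.8%), while NPC-only sites hold the largest share beyond 100 kb (18.4%).

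Away from promoters, the classes also differed in distance. Introns held 33.5% of NPC-only and 27.5% of ESC-only sites, a difference of 5.98 points (4.74 to 7.21), and intergenic sequence held 46.6% and 51.4%. Between 1 and 10 kb from a TSS lay 28.7% of ESC-only and 19.04% of NPC-only sites, and beyond 100 kb 8.40% and 18.4%. The median distance to a TSS was 3.19 kb for shared, 14.2 kb for ESC-only and 24.6 kb for NPC-only sites. Base composition followed the same order. The median GC content of the central 200 bp was 55% in shared, 50% in ESC-only and 48.5% in NPC-only sites, against 41.8% over windows of the genome, and the median number of CpGs was 5, 3 and 2.

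The AP-1 string marked NPC-only sites. It lay in the central 200 bp of 8406 of 19130 NPC-only sites (43.9%), 299 of 7154 ESC-only sites (4.18%) and 92 of 1078 shared sites (8.53%). Of all 200 bp windows of the genome 3.11% hold it, and of windows at TSSs 2.61%, so ESC-only sites were near the genome level. The difference between NPC-only and ESC-only sites was 39.8 points (38.9 to 40.6). Taken alone, ESC replicate 1 (4.55%) and replicate 2 (4.68%) differed little from each other, and the NPC list had 42.3%. Distal sites, those outside TSS windows, held the string more often in NPC-only sites (49.5%, against 19.5% in TSS windows), while distal ESC-only sites had 4.35%. Its share grew with the strength of the NPC peak, from 35.1% in the lowest quartile of the value to 41.4%, 46.6% and 52.8%.

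The string also had a position within the sites. Of NPC-only sites, 31.3% held it within 50 bp of the midpoint, against 2.07% of ESC-only sites and 3.90% of shared sites, and 7.29% held it at least 2 times within 100 bp. The central bins of 20 bp reached 7.65% of NPC-only sites, and bins 480 to 500 bp away lay between 0.376% and 0.397%. In ESC-only sites the centre held 0.489% or less, without a comparable rise.

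**Figure D2:**
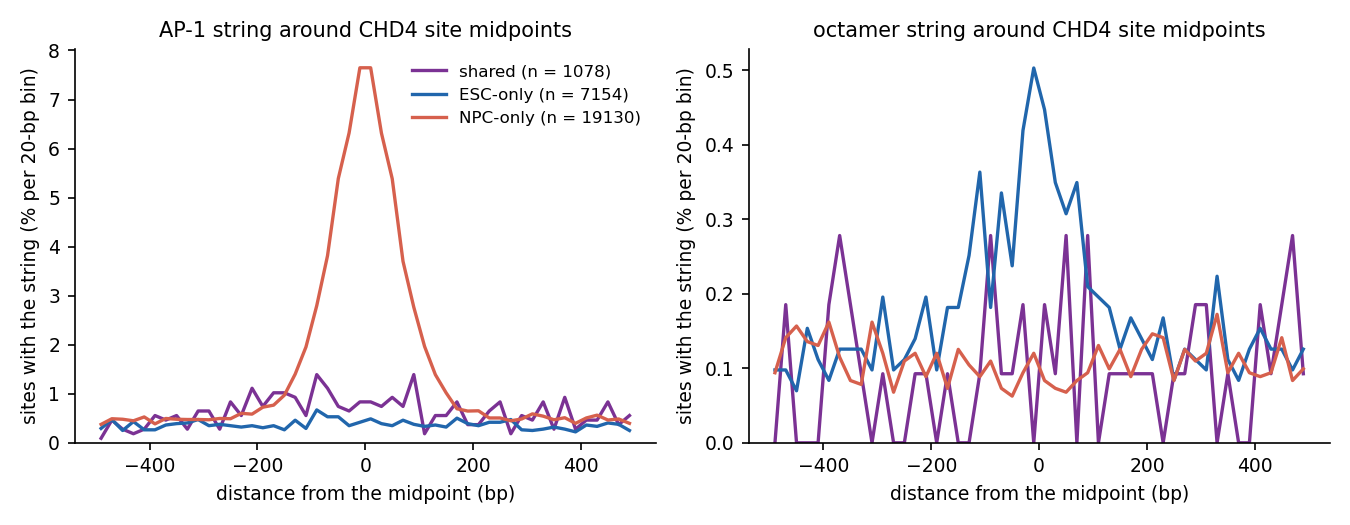
Percentage of sites with a string in each 20 bp bin against distance from the site midpoint (bp), for the AP-1 string and the octamer in shared, ESC-only and NPC-only sites. The AP-1 profile of NPC-only sites rises to 7.65% at the centre, while the octamer reaches 0.503% at the centre of ESC-only sites.

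A count of all 8192 7-base sequences (a sequence and its reverse complement counted as 1) gave the AP-1 string as that with the largest excess in NPC-only over ESC-only sites. The next were overlapping variants of it: GAGTCAC (19.7% against 3.52%), ATGACTC (18.6% against 2.45%), CTGAGTC (17.9% against 4.33%) and ATGAGTC (16.8% against 1.58%). Of the 22 strings, 4 were higher in NPC-only than in ESC-only sites by at least 1 point, 5 were lower and 13 differed by less. Besides AP-1, these 4 were the short NFI string TTGGCA (12.4% against 7.05%, and 9.82% of genome windows), the E-box CAGCTG (17.1% against 12.2%, and 7.22%) and the TEAD string CATTCCA (5.88% against 4.45%, and 3.26%). NFI proteins are known from glial and neural progenitor programmes, CAGCTG is read by bHLH factors, and TEAD proteins are the DNA-binding partners of YAP and TAZ in Hippo signaling. All 3 differences were larger than the gap between the ESC lists, which held NFI in 7.09% and 7.08%, CAGCTG in 11.4% and 12.1% and TEAD in 3.96% and 3.53%. The CRE string of ATF and CREB factors, a relative of the AP-1 site, was rare in each class (0.549% of NPC-only, 0.154% of ESC-only and 0.649% of shared sites). RBPJ, the DNA-binding factor of Notch signaling, gave no such contrast (4.26% and 4.12%, a difference of 0.137 points, −0.423 to 0.664), and the REST core was found in 0 of 1078 shared sites (95% exact interval up to 0.342%, and 0.278% by the floor of 3 counts).

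ESC-only sites were instead higher in the strings of pluripotency factors, at low shares, and in 2 other strings. The telomere unit TTAGGG lay in 8.15% of ESC-only and 6.55% of NPC-only sites, against 7.57% of genome windows. The E-box CACGTG lay in 4.68% and 3.58%, against 1.95%. The octamer lay in 222 of 7154 ESC-only sites (3.10%), 153 NPC-only sites (0.80%) and 15 shared sites (1.39%), against 1.73% of genome windows. The ESRRB string lay in 3.40%, 0.340% and 1.21%, against 0.421% of genome windows. CCACACCC, read by Krüppel-like factors such as KLF2, KLF4 and KLF5, lay in 7.11%, 3.06% and 4.73%, against 1.19%. ESC-only sites exceeded NPC-only sites by 2.30 points for the octamer (NPC-only minus ESC-only −2.75 to −1.90), 3.06 for ESRRB (−3.51 to −2.65) and 4.06 for KLF (−4.72 to −3.43). In the lists taken alone the octamer was in 2.62% and 2.41% of ESC peaks and 0.806% of NPC peaks, and ESRRB in 2.90% and 2.21% against 0.371%. The SOX string, which SOX2 of both cell types can read, differed less (4.43% of ESC-only and 3.82% of NPC-only sites, −1.18 to −0.0768). Any of the octamer, SOX, ESRRB and KLF strings was present in 17.03% of ESC-only, 9.83% of shared and 7.83% of NPC-only sites. In ESC-only sites the octamer share grew from 1.95% to 4.002% from the lowest to the highest quartile of the replicate 1 value. The other strings moved less between these quartiles: ESRRB from 3.23% to 4.28%, SOX from 4.46% to 4.90%, and KLF went down from 7.02% to 6.14%.

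**Figure D3:**
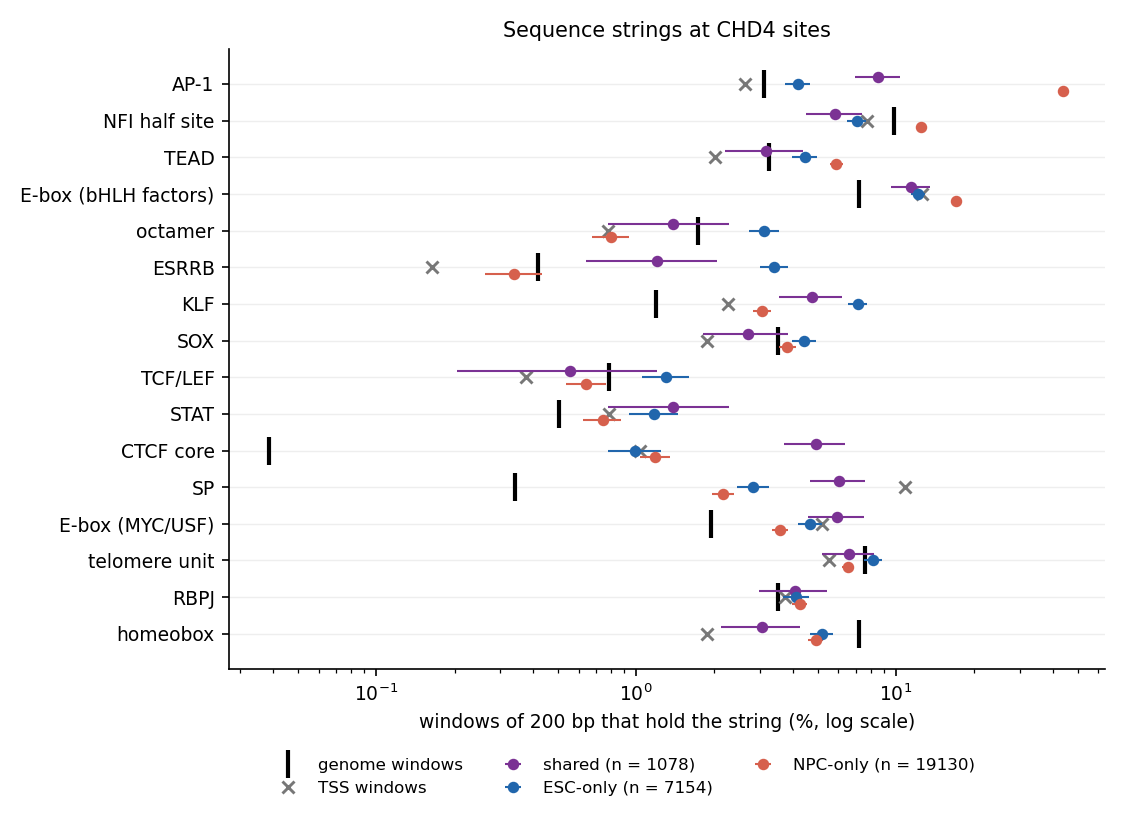
Percentage of 200 bp windows that hold each string (log scale) in shared, ESC-only and NPC-only CHD4 sites, with 95% exact binomial intervals; bars mark all windows of the genome and crosses all windows at TSSs. AP-1 separates NPC-only sites (43.9%) from ESC-only sites (4.18%), ESRRB separates them the other way (0.340% and 3.40%), and the CTCF core is highest in shared sites (4.92%).

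Shared sites were richest in the CTCF core and in the GC box GGGGCGGGG of SP factors. The CTCF core lay in 4.92% of shared, 0.992% of ESC-only and 1.19% of NPC-only sites, against 0.0387% of genome windows and 1.04% of TSS windows. The excess over ESC-only sites was 3.92 points (2.76 to 5.40). It was found in TSS windows (7.07% of shared, 2.00% of ESC-only and 3.88% of NPC-only sites) and at distal sites (3.09%, 0.748% and 0.577%). With replicate 1 as the ESC side the shares were 4.66%, 0.796% and 1.18%, and with replicate 2 6.35%, 2.12% and 0.591%. The GC box lay in 6.03%, 2.82% and 2.16%, against 0.342% of genome windows and 10.8% of TSS windows. Within TSS windows the 3 classes were closer (9.70%, 7.13% and 7.45%), and the classes differ in their share of promoters. The 7-base sequences with the largest excess in shared sites over both other classes were GC-rich ones, CGCCCCC in 16.0% (5.91% of ESC-only and 5.76% of NPC-only sites) and GCGCCCC in 13.3% (3.83% and 3.92%) first among them.

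The 7-base sequences with the largest excess in ESC-only over NPC-only sites did not belong to a factor in the list. GAACTCA lay in 18.7% of ESC-only and 7.58% of NPC-only sites (6.45% of genome windows), AGTTCAA in 17.3% and 6.57% (4.63%), GCTGGGA in 20.5% and 11.4% (5.60%), and GAGTTCA in 16.3% and 7.09% (4.31%). Letters of this kind occur in the short interspersed repeats B1 and B2 of the mouse genome. GAACTCA and GCTGGGA also stand in the NPC-only sequences of Ube2h and Vangl1 shown above. No repeat annotation was used here, so as a stand-in, chosen after these values were seen, sites with both GAGTTCA and CCCAGCA (either strand) in the central 200 bp were counted. The pair was in 0.866% of genome windows, 7.51% of ESC-only sites (6.91 to 8.14), 8.63% of shared sites and 2.56% of NPC-only sites. Both ESC lists had it (7.63% and 7.78%), and the NPC list had it in 2.89%. Examples are an ESC-only site near 2310030N02Rik (chr4:10973341-10973460) and another near 2610019F03Rik (chr8:14015886-14016005), with the pair in capitals.
2310030N02Rik: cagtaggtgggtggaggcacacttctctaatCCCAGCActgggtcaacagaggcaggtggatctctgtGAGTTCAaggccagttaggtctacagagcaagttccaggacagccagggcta
2610019F03Rik: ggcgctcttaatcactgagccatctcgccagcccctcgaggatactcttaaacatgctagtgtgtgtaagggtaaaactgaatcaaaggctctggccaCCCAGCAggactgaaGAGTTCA

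Sites with the pair seldom carried another factor. Of ESC-only sites with the pair, 2.61% overlapped MBD3 in both replicates, against 17.6% of those without it. SIN3A in both lists overlapped 1.12% and 12.2%, and ZFP296 3.17% and 17.5%. Their CHD4 value was not lower (median 9.37 in replicate 1, against 8.66). In NPC-only sites the NPC MBD3 list overlapped 1.43% with the pair and 9.93% without. What part repeated sequence and the mapping of unique reads have in these sites, or in sites with the AP-1 string, was not tested.

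The other lists place the rest of the complex on the same sites. MBD3 is the subunit that defines MBD3/NuRD. Of ESC-only sites 16.5% overlapped MBD3 in both ESC replicates (21.0% in replicate 1 and 36.7% in replicate 2), and 0.391% overlapped the NPC MBD3 list. Of NPC-only sites 9.71% overlapped NPC MBD3 and 0.0941% MBD3 in both ESC replicates. ESC-only and NPC-only sites thus overlapped MBD3 of their own cell type more often than that of the other, though in a minority of sites. Of shared sites 10.2% overlapped MBD3 in both ESC replicates and 10.02% NPC MBD3, and sites with MBD3 of both cell types were not counted. The NPC peaks of shared sites overlapped NPC MBD3 about as often as NPC-only sites (10.7% and 9.71%, a difference of 0.982 points, −0.767 to 2.996). The fraction with MBD3 of the same cell type was lower in NPC-only than in ESC-only sites by 6.80 points, but this direction rested on the lists chosen. It was 4.63 points higher with ESC replicate 2 alone as the ESC side, 1.85 lower (−1.85) with replicate 1 alone, 0.717 higher with the shortened NPC list, and −31.5 where a peak of either ESC MBD3 replicate counted.

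**Figure D4:**
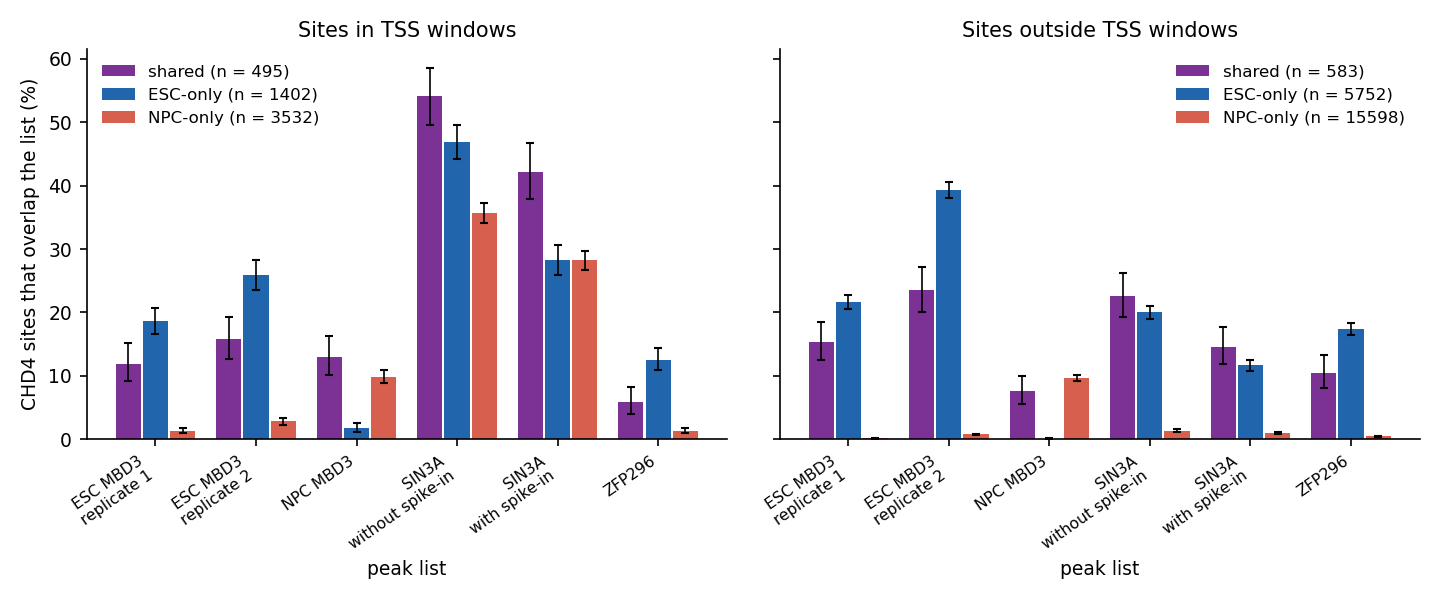
Percentage of shared, ESC-only and NPC-only CHD4 sites that overlap each MBD3, SIN3A and ZFP296 list by at least 1 bp, with 95% exact binomial intervals. Sites in and outside TSS windows are shown apart. ESC MBD3 and ZFP296 lie on ESC-only and, less often, shared sites, and NPC MBD3 on NPC-only and shared sites. SIN3A is highest on shared sites (without spike-in 54.1% in TSS windows and 22.6% outside them).

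ZFP296, a zinc finger protein of ESCs that binds NuRD, overlapped 16.5% of ESC-only, 8.35% of shared and 0.606% of NPC-only sites. ESC-only sites exceeded shared sites both at distal sites (17.4% and 10.5%) and in TSS windows (12.6% and 5.86%). With replicate 1 as the ESC side the ESC-only and shared shares were 12.2% and 7.51%, and with replicate 2 7.23% and 5.74%. SIN3A, the scaffold of another histone deacetylase complex, went the other way, with both lists overlapping 23.4% of shared, 11.3% of ESC-only and 4.72% of NPC-only sites. Shared sites exceeded ESC-only sites in TSS windows by 12.7 points (7.96 to 17.6) and at distal sites by 3.53 (1.06 to 6.47). The shares over all sites of the shared, ESC-only and NPC-only classes changed with the ESC list. With replicate 1 as the ESC side these 3 shares were 21.7%, 9.40% and 4.62%, and with replicate 2 24.6%, 8.45% and 2.66%. SIN3A was measured in ESCs only. The list without spike-in overlapped 35.6% of the NPC-only sites in TSS windows, against 1.34% of the distal ones. In TSS windows it overlapped 57.7% of NPC-only sites with an ESC CHD4 peak not held in both ESC lists. Of those with a CHD4 peak in neither ESC list it overlapped 26.1%. No list but CHD4 had a peak at 47.5% of ESC-only, 51.2% of shared and 81.7% of NPC-only sites. Of these other lists only NPC MBD3 comes from NPCs and the rest from ESCs. The 3 shares therefore cannot be compared between the cell types.

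The strings and the other factors met on the same sites in part. ESC-only sites with the octamer overlapped MBD3 in both replicates in 29.3%, against 16.1% of those without it (13.2 points, 7.52 to 19.5), and ZFP296 in 28.8% against 16.1%. The SOX string went with MBD3 (27.8% against 16.0%) and the ESRRB string too (24.3% against 16.2%), but ESRRB made no such difference for ZFP296 (16.5% and 16.5%, a difference between −4.22 and 5.26 points). ESC-only sites with the CTCF core overlapped MBD3 in 2.82%, against 16.6%. In NPC-only sites, MBD3 lay on 11.5% of sites with the AP-1 string and 8.35% of those without (3.11 points, 2.26 to 3.97), and on 12.96% with CAGCTG against 9.04%. Of shared sites with the GC box, 49.2% carried SIN3A in both lists, against 21.7% (27.5 points, 15.5 to 39.6). Both the GC box and SIN3A were more frequent in TSS windows (SIN3A in 37.2% of shared sites there and 11.7% of distal ones). The contrast was not split by position.

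Each site was assigned to the nearest protein-coding TSS within 100 kb. Of 22359 genes, 910 (4.07%) had a shared site, 3395 (15.2%) an ESC-only site and 6975 (31.2%) an NPC-only site. A gene with an ESC site was counted as kept if any NPC peak was assigned to it. This rule is looser than overlap, so the share cannot be set against that of shared sites. An NPC peak was assigned to 32.8% of all genes. Of 3880 genes with an ESC site, 2303 (59.4%) also had an NPC peak. These were 31.4% of the 7338 genes with an NPC peak. At 1399 of the 2303 genes (60.7%) no site was shared. NPC peaks there could still overlap an ESC peak not held in both ESC lists, as 10.8% of all NPC-only sites did. The kept share was 57.0% and 51.1% from each ESC list alone, 48.8% within 10 kb and 38.7% with the shortened NPC list. Genes differ in how much sequence lies nearest to them. This territory had a median of 46.5 kb over all genes and 80.1 kb over the 2303, and of 7320 genes with at least 80 kb, 4.80% had a shared, 21.0% an ESC-only and 47.5% an NPC-only site. Sites were also spread unevenly over chromosomes. Relative to its share of genes, chromosome 8 held 1.76 times the ESC sites and 1.02 times the NPC peaks. Chromosome 3 held 0.795 times the ESC sites and 1.72 times the NPC peaks. Counts per gene were not corrected for this. The gene lists that follow were drawn up with earlier results of these data known, and are described by counts. A peak of ESC replicate 1 was assigned to 21.4% of all genes, one of replicate 2 to 43.1% and one of NPCs to 32.8%, and because ESC-only sites had to be in both ESC lists, the number of genes each list reached is given as well.

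Pluripotency genes held ESC-only sites. Of 23 such genes 22 had at least 1 ESC-only site (15.2% of all genes), 6 had an NPC-only site (31.2% of all) and 1 a shared site (4.07% of all), with 136 ESC-only and 8 NPC-only sites in total. The median territory of these genes was 106.0 kb, and of genes with at least 80 kb 21.0% had an ESC-only and 47.5% an NPC-only site. Any peak of replicate 1, and likewise any of replicate 2, was found at 22 of the 23 genes (21.4% and 43.1% of all genes), and an NPC peak at 6 (32.8%). The exception was Nr0b1, an orphan nuclear receptor on chromosome X, which had no CHD4 peak of any list assigned to it. Tbx3, a T-box factor of the naive network (chr5:120120678-120134733), had more ESC-only sites than any other gene, 24, with 26 peaks in ESC replicate 1, 46 in replicate 2 and 0 in NPCs. Sall1, a zinc finger factor whose family recruits NuRD (chr8:91551147-91568061), had 15, with 18, 42 and 0 peaks. Pou5f1 (chr17:35642982-35647721), which encodes OCT4, had 11 in a territory of 24.9 kb, with 17, 18 and 0 peaks. Zfp42 had 10 ESC-only sites, Nanog, Sall4 and Prdm14 8 each, and Esrrb, Klf2 and Klf5 7 each. Of these, Nanog and Klf5 had 1 NPC-only site each and the others none.

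The sites along Pou5f1 show the pattern within one gene. The strongest lay 0.922 kb upstream of the TSS (chr17:35641878-35642242) with values of 20.1 and 31.9 in the ESC lists, and held the SOX string. The site 1.94 kb upstream (chr17:35640874-35641217) had values of 17.4 and 27.6. Both carried MBD3 in both replicates, SIN3A in both lists and ZFP296, as did the site at the TSS itself (9.40 and 12.9). A site 3.49 kb upstream (15.8 and 11.7) carried MBD3 and ZFP296. Among the ESC-only sites of all pluripotency genes, MBD3 in both replicates overlapped 26.5%, SIN3A in both lists 29.4% and ZFP296 21.3%, against 15.9%, 11.8% and 16.3% of ESC-only sites assigned to any gene.

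Sox2, which ESCs and NPCs both use, was the pluripotency gene with a shared site. It had 5 ESC-only sites, 2 NPC-only sites and 1 shared site 9.11 kb upstream (chr3:34539736-34539902), with values of 10.3 and 12.2 in the ESC lists and 21.2 in NPCs, and with a CTCF core. The ESC-only site 3.92 kb downstream of its TSS (chr3:34552748-34553213; 16.8 and 22.2) held the SOX string and carried MBD3 and SIN3A. The gap between its ESC-only and NPC-only sites could be small, as at 95.4 kb and 93.8 kb downstream of the TSS.

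**Figure D5:**
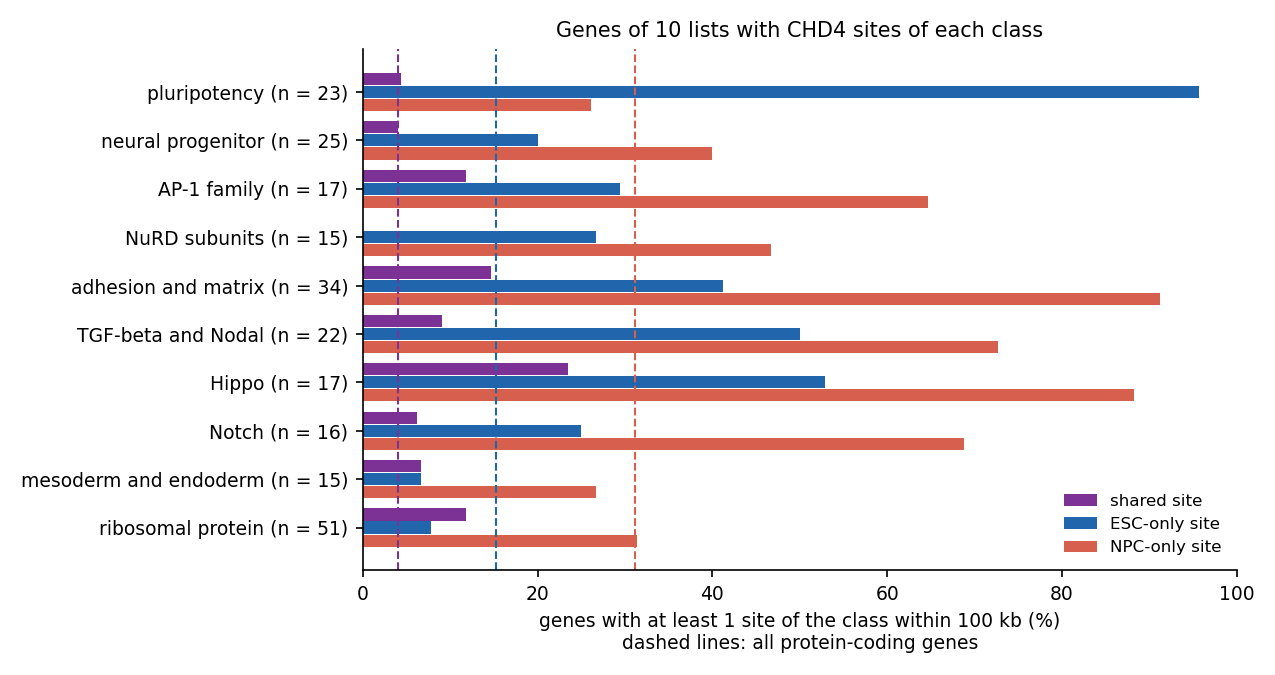
Percentage of the genes of each list with at least 1 ESC-only, NPC-only or shared CHD4 site assigned to them, beside all 22359 protein-coding genes. Of 23 pluripotency genes 22 have an ESC-only site. Adhesion genes (41.2% ESC-only, 91.2% NPC-only and 14.7% shared) and Hippo genes (52.9%, 88.2% and 23.5%) are above all genes in each class (15.2%, 31.2% and 4.07%). Both lists have a larger median territory (89.1 and 91.2 kb) than all genes (46.5 kb). Over genes with a territory of at least 80 kb the shares are 21.0%, 47.5% and 4.80%.

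Genes of cell adhesion and matrix held many NPC-only sites. Of 34 genes 31 had an NPC-only site (31.2% of all genes), 14 an ESC-only site (15.2%) and 5 a shared site (4.07%), with 148 NPC-only and 40 ESC-only sites. The median territory of the list was 89.1 kb, and over genes with at least 80 kb the shares were 47.5%, 21.0% and 4.80%. Taken alone, ESC replicate 1 had a peak at 17 of the 34 genes, replicate 2 at 25 and NPCs at 31. Col4a2, a chain of basement membrane collagen (chr8:11312805-11449287), had 14 NPC-only sites, with 0 peaks in ESC replicate 1, 1 in replicate 2 and 14 in NPCs, and 5 of the 14 held the AP-1 string. Tns1, which links integrins to actin, had 13 NPC-only sites (7 with AP-1) beside 2 ESC-only and 1 shared, from 3, 12 and 14 peaks in ESC replicate 1, replicate 2 and NPCs. Cd44, a hyaluronan receptor (5 of its sites with AP-1), and Parva, a partner of integrin-linked kinase, had 10 each and no ESC site. Over the list 43.2% of NPC-only sites held the string, close to the 41.8% of NPC-only sites assigned to any gene.

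The AP-1 family itself had NPC-only sites at 11 of 17 genes (31.2% of all genes) and ESC-only sites at 5 (15.2%), with 32 and 9 sites. By single lists, 9 of the genes had a peak of replicate 1, 13 of replicate 2 and 11 of NPCs, so the lean to NPCs depended on the ESC list. Jun (chr4:94715725-94718913) had 13 of the 32. Its locus held no peak in ESC replicate 1, 1 in replicate 2 and 13 in NPCs, and 7 of the 13 held the AP-1 string. Their values ran from 4.25 to 15.8, and the highest lay 26.1 kb downstream of the TSS with an NPC MBD3 peak. The one 31.9 kb upstream (chr4:94750701-94750989; 14.4) held both AP-1 and CAGCTG. Atf3, a stress-induced member, and Maf, a large MAF protein, had 4 NPC-only sites each and no ESC-only site, but replicate 2 had 4 peaks at Atf3 and 0 at Maf. Junb and Jund, both on chromosome 8, differed from Jun, with 3 ESC-only sites each and 1 and 0 NPC-only sites.

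Signaling genes were split between the cell types. In TGF-beta and Nodal signaling 11 of 22 genes had ESC-only and 16 NPC-only sites (51 and 74 sites, and 15.2% and 31.2% of all genes). The median territory of the list was 91.7 kb, and over genes with at least 80 kb the shares were 21.0% and 47.5%. Each ESC list alone had a peak at 17 of the 22 genes and NPCs at 16. Nodal, the ligand that ESCs express (chr10:60880720-60888086), had 9 ESC-only sites and no NPC peak, with 12 and 14 peaks in the ESC lists. Seen along the gene, 2 neighbours 1.41 and 2.07 kb upstream were the strongest (23.8 and 18.8, and 18.7 and 18.8), and the second carried MBD3, SIN3A and ZFP296. Smad3, a receptor-activated SMAD (chr9:63494574-63605801), stood at the other end with 18 NPC-only, 1 shared and no ESC-only site, from 1, 3 and 19 peaks in the ESC lists and NPCs, and 9 of the 18 held the AP-1 string. Smad7, the inhibitory SMAD, had both kinds (12 ESC-only and 9 NPC-only), as did Tgif1, a co-repressor of SMADs (15 and 9, with 1 shared).

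Of 17 Hippo genes 15 had NPC-only and 9 ESC-only sites (53 and 18 sites, and 31.2% and 15.2% of all genes), and 4 of 17 had a shared site (4.07%). The median territory of the list was 91.2 kb, and over genes with at least 80 kb the shares were 47.5%, 21.0% and 4.80%. Replicate 1 alone had a peak at 10 of the 17 Hippo genes, and replicate 2 and NPCs at 15 each. The TEAD factors differed from each other. Tead1 had 15 NPC-only sites, 1 ESC-only and 1 shared, from 2, 9 and 16 peaks in the lists, and Wwtr1, which encodes TAZ, had 8 NPC-only and 1 ESC-only site. Tead4 (chr6:128174306-128250841) had 4 shared sites, 5 ESC-only and 1 NPC-only. Its shared site at chr6:128246528-128246872 had values of 13.2 and 36.9 in the ESC lists and 30.1 in NPCs, and carried MBD3 of both cell types, SIN3A and ZFP296. In this list 20.8% of NPC-only sites held the AP-1 string, less than the 41.8% over all genes.

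Of 16 Notch genes 11 had NPC-only and 4 ESC-only sites (41 and 14 sites, and 31.2% and 15.2% of all genes). Replicate 1 alone had a peak at 7 of them, replicate 2 at 13 and NPCs at 11, so replicate 2 reached more Notch genes than NPCs did. The receptors Notch2 and Notch1 had 13 and 6 NPC-only sites and no ESC-only or shared site, while replicate 2 had 2 and 4 peaks there. The strongest at Notch2 was intronic (chr3:97846265-97846492; 20.3), with AP-1 and CAGCTG, and the site at its TSS (15.5) carried SIN3A in ESCs. Rbpj had 8 ESC-only and 5 NPC-only sites, and the target gene Hes1 4 of each with 1 shared. The NPC MBD3 list overlapped 29.3% of the NPC-only sites of Notch genes, against 9.97% over all genes, and 29.3% held the AP-1 string.

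Neural progenitor genes did not mirror the pluripotency genes. Of 25 genes 10 had an NPC-only site (31.2% of all genes), 5 an ESC-only site (15.2%) and 1 a shared site (4.07%), and 14 of them had no site of any class. The median territory of the list was 114.1 kb, and over genes with at least 80 kb the shares were 47.5%, 21.0% and 4.80%. Taken alone, the ESC lists differed, with a peak at 6 genes in replicate 1 and at 15 in replicate 2, against 10 in NPCs. Nfib, a factor of glial and neural development, had 6 NPC-only and 1 ESC-only site (2, 12 and 6 peaks in the lists), Zbtb20, a zinc finger factor of hippocampal development, 4 and 0, and Nes and Bcan, which encode nestin and brevican, 2 NPC-only sites each. Olig2, Fabp7, Sox3 and Pou3f2 had none in any list. Of 15 NuRD genes 7 had NPC-only and 4 ESC-only sites (14 and 7 sites, and 31.2% and 15.2% of all genes). None of the NuRD genes had a shared site (4.07% of all genes). Hdac2 (4 NPC-only, 1 ESC-only), Chd3 (3 and 0) and Mta3 (1 and 3) were among the NuRD genes with sites. Replicate 1 alone had a peak at 4 NuRD genes, replicate 2 at 13 and NPCs at 7. Of 15 mesoderm and endoderm genes 4 had NPC-only, 1 ESC-only and 1 shared sites (31.2%, 15.2% and 4.07% of all genes). Replicate 1 reached 3 of the 15, replicate 2 12 and NPCs 5. For both lists the order of ESCs and NPCs thus turned with the ESC list used. Of 51 ribosomal protein genes, with a median territory of 15.6 kb, 16 had NPC-only, 4 ESC-only and 6 shared sites (31.2%, 15.2% and 4.07% of all genes), and the lists reached 13, 21 and 20.

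Outside these lists, the genes with most sites were led by the same names in part. Among those with most ESC-only sites, Tbx3 was followed by Rbpms, an RNA-binding protein, with 21 ESC-only, 3 NPC-only and 1 shared site. Sall1 and Arid5b, an ARID-domain chromatin protein, had 15 each (Arid5b with 7 NPC-only and 1 shared). The most NPC-only sites were at Camk2d, a calmodulin-dependent kinase (19, with 0 and 1 peaks in the ESC lists), and Lrig1, an inhibitor of EGF receptor signaling (19, with 4 ESC-only and 2 shared). Lpp, a LIM protein of focal adhesions, Phf15, a PHD finger protein, and Smad3 had 18 each and no ESC-only site, with 5, 11 and 3 peaks in ESC replicate 2. Their territories ran from 102.1 kb at Phf15 to 454.7 kb at Lpp. Shared sites were most numerous at Cxxc5, a CXXC zinc finger protein (5), followed by Tead4, Plekhg6, Gm6772 and 6430527G18Rik with 4 each. At Plekhg6 and 6430527G18Rik ESC-only sites outnumbered them (9 and 14).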

How the data were processed

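ChIP-seq peak lists of CHD4, MBD3, SIN3A and GFP-ZFP296 were used (9 lists of 36 samples). The authors aligned reads to mm9 with BWA, kept unique reads, removed duplicates and called peaks in each library with MACS2 2.0 with input of that cell line as control. The submitters' processing notes also name SAMtools. The deposited value of a peak is on a −log10 scale, and which of p-value and q-value it transforms is not given in the sources used here. It ranks peaks within a list. Peak names give 0.001 as the threshold of the CHD4 lists and mention normalization to one read number. Reads per peak were not used here, so depth behind a site is unknown and binding levels were not compared between lists.

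Groups came from sample titles. Sites were assigned with Python 3.11.15 and numpy 2.4.6 to mm9 (NCBIM37) and GENCODE vM1 protein-coding genes, taking the nearest TSS within 100 kb, and 22 strings and all 7-base sequences were looked for in the central 200 bp on either strand. Shares carry 95% Clopper-Pearson intervals (scipy 1.17.1) and differences Newcombe intervals, which cover counting error only. Overlap and string searches were tested on simulated data, which returned 100% of 450 planted overlaps and of 120 planted strings. Named genes were the 3 with most sites of each class per list and the 5 of the genome, and named sites the 3 highest of each class. One result under this rule is not reported here. Other genes are named as further members of a list, chosen after their values were seen. The lists of genes, Tfcp2l1, Sox1 and Ajuba excepted, were found in the annotation. Site classes, gene lists and strings were chosen with earlier results of these data known.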

Additional observations from a re-analysis of the deposited data

How the results depend on the processing

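No paired analysis was possible because the results come from no test and the NPC list has no replicate number. Of 7 results, 2 are percentages, which cannot change sign, and 5 are differences, of whose 48 alternative values 45 kept the direction and 3 changed sign. Of all 63 alternative values 34 moved by less than the SD over the single ESC lists. Leaving out either ESC list gave, for ESC sites with an NPC peak (13.1%), 9.88 to 10.8%; for the TSS share of shared minus ESC-only sites (26.3 points), 24.4 to 25.9; for that of NPC-only minus ESC-only sites (−1.13), −10.1 to −3.01; for AP-1 (39.8), 40.2 to 43.1; for the octamer (2.30), 1.75 to 1.98; for MBD3 (−6.80), −1.85 to 4.63, which changed sign without replicate 1; and for genes kept (59.4%), 51.1 to 57.0%.

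With the NPC list cut to the number of ESC sites, 7.45% of ESC sites were shared, the TSS difference of NPC-only minus ESC-only sites was −6.34, AP-1 46.4, MBD3 0.717 (changed sign) and genes kept 38.7%. Overlap of at least 50% of the shorter peak gave 12.2% shared sites, midpoints within 500 bp 14.4%, and leaving out chromosomes 3, 6, 8, 14 and 19 12.2%. A symmetric window, 1 kb around each TSS, gave 25.1 for shared minus ESC-only and 0.842 (changed sign) for NPC-only minus ESC-only sites. The central 100 bp gave 27.9 points for AP-1 and 1.48 for the octamer, the central 500 bp 43.4 and 2.96, and distal sites 45.1 and 2.56. NPC-only sites in neither ESC list gave 43.4 for AP-1. MBD3 in either ESC replicate gave −31.5, and genes within 10 kb 48.8%. The cause of these shifts was not tested. One NPC library and peaks without read counts limit every comparison.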

Other observations

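The 3455 peaks of ESC replicate 1 with no peak in replicate 2 overlapped MBD3 in both ESC replicates in 0.666%, against 16.5% of ESC-only sites, and 80.1% of them had no peak of any other list, against 47.5%. They held the pair of GAGTTCA and CCCAGCA in 7.58%, close to the 7.51% of ESC-only sites. In replicate 2 the CTCF core was in 2.53% of peaks, against 1.22% in replicate 1. NPC-only sites that overlapped an ESC peak not held in both ESC lists lay nearer to genes than NPC-only sites as a whole, with a median TSS distance of 1.81 kb against 24.6 kb.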
